A study of Homo sapiens with 4 samples.

Results

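The mRNAs of 10 selenoproteins, GPX1, GPX4, TXNRD1, TXNRD2, SELENOK, SELENOW, SELENOT, SELENOS, SELENOF and SELENON, were followed in a polysome profiling experiment on MDA-MB-231 cells, a human triple-negative breast cancer line. They were chosen by name as selenoprotein genes, and they are 10 of the 28198 genes in the table. The cells had been depleted of METTL3, the enzyme that writes m6A on mRNA, and reconstituted by lentivirus with WT-METTL3 or with K177Q-METTL3, in which glutamine stands in for acetylated lysine. Cells of both genotypes thus carry the depletion and a lentiviral METTL3, and cells with their own METTL3 are not among the libraries analysed here. All cells received 100 µg/mL cycloheximide for 5 min before lysis. From the sucrose gradient, the part holding 40S, 60S and 80S particles was taken as sub-polysome and the heavier part as polysome, and poly(A)-selected RNA of each was sequenced. Each of the 4 conditions is 1 library here, all labelled as replicate 2. Another 4 columns of the table, numbered 1 where these are numbered 2, belong to no sample described for this work and were not analysed here. No value therefore has a replicate error, no difference was tested and no p-value is given.

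Selenoproteins carry selenocysteine (Sec), which is encoded by UGA, a codon that elsewhere ends translation. A hairpin in the 3' untranslated region, the SECIS element, recruits SECISBP2 and the elongation factor EEFSEC, which bring the selenocysteine tRNA to the UGA while the ribosome is there. Recoding competes with termination, and for some selenoprotein mRNAs, GPX1 being the best known, termination at the UGA can lead to nonsense-mediated decay when selenium is scarce. Most selenoproteins are oxidoreductases with Sec in the active site.

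The place of the UGA differs between these mRNAs, and the sequences around it are shown because the results below divide along it. They are from the canonical transcripts of GENCODE 44 on hg38, 5' to 3' on the coding strand, with the Sec codon in capitals in its reading frame and 12 bases of coding sequence before it. In the first group the Sec codon lies far from the end of the reading frame, and 12 bases after it are shown.
SELENOW: tattgtggcgctTGAggctacaagtcc
GPX1: gtggcgtccctcTGAggcaccacggtc
GPX4: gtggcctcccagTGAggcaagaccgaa
SELENOT: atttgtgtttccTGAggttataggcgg
SELENOF: gaagtttgtggaTGAaaattgggaagg
SELENON, first codon: ccctggctcaatTGAtcctcctgcctc
SELENON, second codon: gaccagtcctgcTGAggttcagggcgg
In the second group the sequence runs to the stop codon, also in capitals.
SELENOK: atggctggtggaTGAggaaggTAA
SELENOS: tcatctggcggaTGAggcTAA
TXNRD1: caggctggctgcTGAggtTAA
TXNRD2: gtgacaggctgcTGAgggTAA

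In SELENOW the Sec codon is residue 13 of 87, in exon 2 (chr19:47780732-47780734, plus strand). In GPX1 it is residue 49 of 203, in exon 1 (chr3:49358132-49358134, minus strand), and in GPX4 residue 73 of 197, in exon 3 (chr19:1105403-1105405, plus strand). In SELENOT it is residue 49 of 195, in exon 2 (chr3:150622392-150622394, plus strand), and in SELENOF residue 96 of 165, in exon 3 (chr1:86880690-86880692, minus strand). SELENON is annotated with 2 such codons, residues 127 and 462 of 590, in exons 3 and 10 (chr1:25802093-25802095 and chr1:25812789-25812791, plus strand). The other 4 mRNAs are read almost to the end before the UGA is met. In TXNRD1 Sec is residue 648 of 649, in exon 17 (chr12:104348413-104348415, plus strand), in TXNRD2 residue 523 of 524, in exon 17 (chr22:19877111-19877113, minus strand), in SELENOS residue 188 of 189, in exon 6 (chr15:101272777-101272779, minus strand), and in SELENOK residue 92 of 94, in exon 4 (chr3:53885831-53885833, minus strand). Each UGA was in frame, and the 10 reading frames end in UAA or UAG.

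Values are the FPKM of the authors, fragments per kilobase of transcript and per unit of mapped fragments, which can be compared between genes. A change common to every mRNA of a library does not show in them. The totals of FPKM lay between 767949 and 1037594 with the largest in the K177Q-METTL3 sub-polysome library, and an approximate depth of 24502709 to 26502277 fragments per library was inferred from the lowest values. At that depth the 10 mRNAs had at least 387 fragments in each library, and counting error alone gave their log2 genotype ratios standard errors between 0.027 and 0.109, which leave out variation between libraries. METTL3 had 9.39 and 38.7 FPKM in the WT-METTL3 sub-polysome and polysome libraries and 5.07 and 29.5 FPKM in the K177Q-METTL3 libraries, which does not separate the transgene from the endogenous mRNA. Of the markers of the line, VIM, CD44, AXL, CAV1 and MSN had means of at least 100.5 FPKM, and ESR1, PGR and CDH1 were below 1 FPKM in each library. EPCAM and GATA3, also listed as absent from this line, had between 2.83 and 9.91 FPKM.

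All 10 selenoprotein mRNAs passed the minimum of 1 FPKM on average, as did 10905 genes in all. Together they made up 0.360% and 0.371% of all FPKM in the WT-METTL3 and K177Q-METTL3 sub-polysome libraries and 0.122% and 0.117% in the polysome libraries. GPX1, a cytosolic glutathione peroxidase that reduces hydrogen peroxide, was the most abundant, with 1562 and 326 FPKM (sub-polysome, then polysome) in WT-METTL3 cells and 1842 and 266 FPKM in K177Q-METTL3 cells. GPX4, which reduces lipid hydroperoxides in membranes and protects cells from ferroptosis, had 1117 and 281 FPKM in WT-METTL3 cells and 1306 and 256 FPKM in K177Q-METTL3 cells. SELENOW, a small cytosolic protein with a thioredoxin-like fold, had 201 and 24.8 FPKM in WT-METTL3 cells and 299 and 20.4 FPKM in K177Q-METTL3 cells. In these 3 mRNAs both sub-polysome values lay above both polysome values, by 3.97-fold in WT-METTL3 cells for GPX4, 4.79-fold for GPX1 and 8.11-fold for SELENOW.

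The thioredoxin reductases use NADPH to keep thioredoxin reduced. TXNRD1, the cytosolic enzyme, had 78.1 and 85.3 FPKM in the sub-polysome and polysome fractions of WT-METTL3 cells and 76.7 and 94.4 FPKM in K177Q-METTL3 cells. TXNRD2, the mitochondrial enzyme, had 11.4 and 18.2 FPKM in WT-METTL3 cells and 12.1 and 17.6 FPKM in K177Q-METTL3 cells. In both mRNAs, and in both genotypes, the polysome value was the higher one, the reverse of the peroxidases.

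The other 5 proteins sit in the endoplasmic reticulum. SELENOS, a membrane protein of the machinery that extracts misfolded proteins for degradation, had 63.9 and 92.1 FPKM (sub-polysome, then polysome) in WT-METTL3 cells and 79.6 and 84.1 FPKM in K177Q-METTL3 cells. SELENOK, a small membrane protein that acts with a palmitoyltransferase, had 67.4 and 81.8 FPKM in WT-METTL3 cells, and 88.0 and 65.6 FPKM in K177Q-METTL3 cells. It was the only one of the 10 whose order of fractions differed between the genotypes, and with TPM (every library scaled to an equal sum) its order did not differ. SELENOF, which binds a folding sensor of glycoproteins, had 88.5 and 61.6 FPKM in WT-METTL3 cells and 87.6 and 60.1 FPKM in K177Q-METTL3 cells. SELENOT, a thioredoxin-like membrane protein, had 24.5 and 14.0 FPKM in WT-METTL3 cells and 25.3 and 14.0 FPKM in K177Q-METTL3 cells. SELENON, which is mutated in a congenital myopathy, had 27.1 and 15.3 FPKM in WT-METTL3 cells and 31.3 and 18.5 FPKM in K177Q-METTL3 cells. These last 3 were higher in the sub-polysome fraction of both genotypes, by between 1.44-fold and 1.80-fold.

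**Figure D1:**
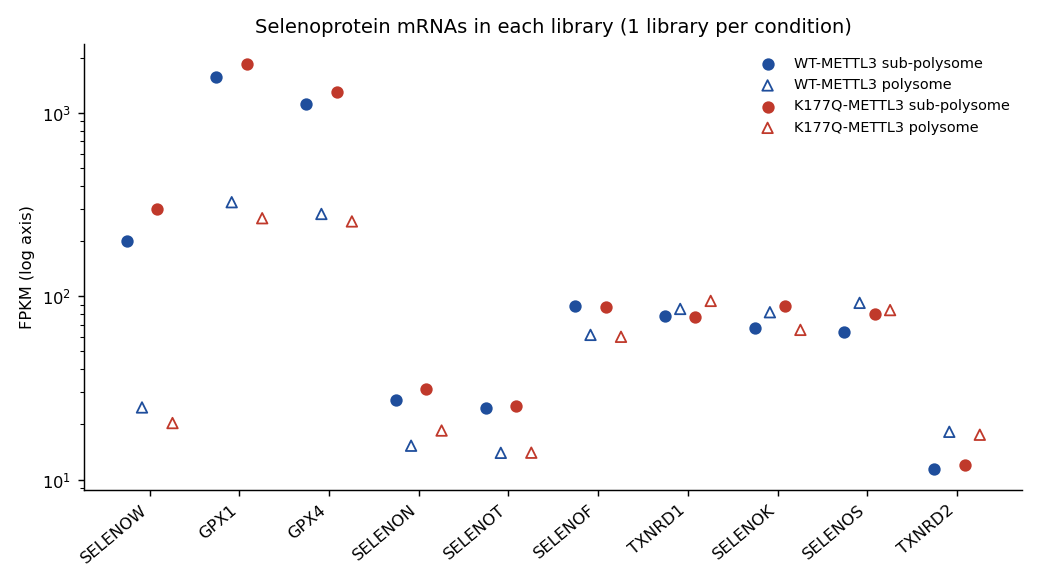
FPKM on a log axis of each selenoprotein mRNA in the 4 libraries, with filled circles for the sub-polysome and open triangles for the polysome fraction, WT-METTL3 cells in blue and K177Q-METTL3 cells in red, 1 library per point and genes ordered by translation efficiency in WT-METTL3 cells. The circles stand far above the triangles for SELENOW, GPX1 and GPX4, and the order turns for TXNRD1, SELENOS and TXNRD2.

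Translation efficiency is the ratio of the polysome to the sub-polysome value. It is given as a log2 value, after adding 0.1 to both FPKM values. In WT-METTL3 cells it was -3.02 for SELENOW, -2.26 for GPX1, -1.99 for GPX4, -0.82 for SELENON, -0.80 for SELENOT, -0.52 for SELENOF, 0.13 for TXNRD1, 0.28 for SELENOK, 0.53 for SELENOS and 0.68 for TXNRD2. Against a median of 0.14 over all genes, SELENOW stood at percentile 0.358 of the 10905 genes, GPX1 at 1.47 and GPX4 at 2.34. At a threshold of 1.5-fold, 5 of the 10 were lower in the polysome than in the sub-polysome fraction, against 19.1% of all genes, and 1, TXNRD2, was higher, against 28.1%. Neighbours such as SELENON and SELENOT, or GPX1 and GPX4, cannot be ordered, since the spread of a value between replicates was not measured here.

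K177Q-METTL3 cells gave nearly the same order. The values of log2 translation efficiency were -3.87 for SELENOW, -2.79 for GPX1, -2.35 for GPX4, -0.85 for SELENOT, -0.75 for SELENON, -0.54 for SELENOF, -0.42 for SELENOK, 0.08 for SELENOS, 0.30 for TXNRD1 and 0.54 for TXNRD2, against a median of 0.16 over all genes. Here too 5 of the 10 were at least 1.5-fold lower in the polysome fraction, against 21.3% of all genes, and 0 were at least 1.5-fold higher, against 30.2%. The 2 genotypes are not replicates, but each was fractionated and sequenced on its own.

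**Figure D2:**
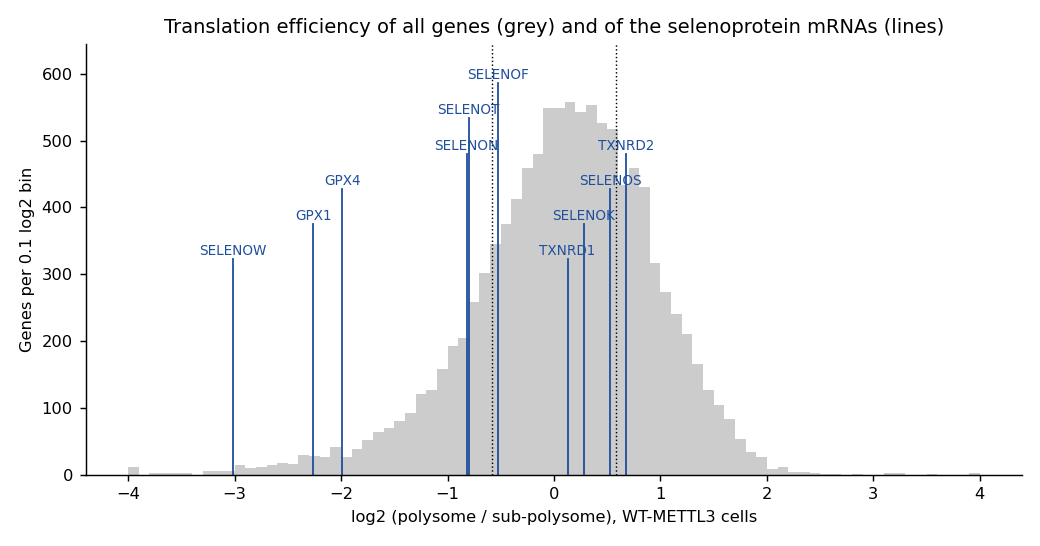
Number of genes in bins of 0.1 of log2 polysome over sub-polysome FPKM in WT-METTL3 cells for the 10905 genes kept (grey; 14 genes beyond 4 in either direction are drawn in the end bins), with the selenoprotein mRNAs as blue lines whose height has no meaning and 1.5-fold as dotted lines. SELENOW, GPX1 and GPX4 lie in the left tail, and TXNRD1, SELENOK, SELENOS and TXNRD2 lie among the bulk of genes.

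The values divided along the place of the Sec codon. The 4 mRNAs with Sec among the last 10 residues (TXNRD1, TXNRD2, SELENOK and SELENOS) had log2 translation efficiencies in WT-METTL3 cells between 0.13 and 0.68. The 6 with Sec further in had values between -3.02 and -0.52, so these groups did not overlap. Of all genes, 42.7% were below 0 in these cells. The limit of 10 residues, like the other settings, was chosen with earlier results of these data known. In K177Q-METTL3 cells the first group ran from -0.42 to 0.54 and the second from -3.87 to -0.54. They still did not overlap, but by a small margin between SELENOK and SELENOF, and 42.8% of all genes were below 0. Location in the cell divided the mRNAs less cleanly. The cytosolic group held both SELENOW at -3.02 and TXNRD1 at 0.13, and the endoplasmic reticulum group ran from -0.82 to 0.53.

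Of the 15 other human selenoprotein genes, 8 passed the minimum, and GPX2, GPX6, DIO1, DIO2, DIO3, SELENOP and SELENOV did not. TXNRD3, a thioredoxin reductase best known from testis, and SELENOO, a mitochondrial protein that attaches AMP to other proteins, have Sec among the last 10 residues. Their log2 translation efficiencies were 0.74 and 0.97 in WT-METTL3 cells and 1.26 and 1.01 in K177Q-METTL3 cells. TXNRD3 had at most 2.58 FPKM in any library. The 6 others have Sec further in. SELENOH, a nucleolar protein, had -1.99 in WT-METTL3 and -2.38 in K177Q-METTL3 cells, close to the values of GPX4, with Sec at residue 44 of 122. SELENOM, of the endoplasmic reticulum, had -0.98 and -1.63. SEPHS2, which makes the selenophosphate used to build Sec, had -0.50 and -0.71, and the secreted peroxidase GPX3 had -0.39 and -0.72. MSRB1, which repairs oxidized methionine and has Sec at residue 95 of 116, had -0.24 and -0.73. SELENOI, a phospholipid-synthesizing enzyme, is the 1 just outside the limit, with Sec at residue 387 of 397, and had -0.24 and -0.21.

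Over the 18 selenoprotein mRNAs detected, log2 translation efficiency in WT-METTL3 cells was thus above 0 for 6 of 6 with Sec among the last 10 residues and for 0 of 12 with Sec further in, with medians of 0.60 and -0.81. Over all genes 42.7% were below 0. In K177Q-METTL3 cells it was above 0 for 5 of 6 and 0 of 12, with medians of 0.42 and -0.80, and 42.8% of all genes were below 0. With TPM the counts were 6 of 6 and 0 of 12 in WT-METTL3 cells, and 6 of 6 and 1 of 12, SELENOI, in K177Q-METTL3 cells. TPM also raised the median of all genes, to 0.28 in WT-METTL3 and 0.59 in K177Q-METTL3 cells. The share of all genes above 0 was not counted with TPM. The split at 0 was less clean under other settings. In K177Q-METTL3 cells size factors left 4 of 6 above 0 in the first group and 0 of 12 in the second, with a median of 0.055 over all genes. Centring on the median of all genes left 5 of 6 and 0 of 12 in WT-METTL3 cells and 4 of 6 and 0 of 12 in K177Q-METTL3 cells. Across the 17 of these mRNAs with 1 Sec codon, Spearman's rho of log2 translation efficiency with the number of codons before the Sec codon was 0.876 in WT-METTL3 and 0.925 in K177Q-METTL3 cells. With the percent of the coding sequence before the Sec codon it was 0.816 and 0.833, and with the length of the whole protein 0.544 and 0.659. For the K177Q-METTL3 to WT-METTL3 ratio of translation efficiency rho was larger with protein length, at 0.811, than with codons before Sec, at 0.715, or with the percent, at 0.552. The genes share libraries and the measures share coding length, so these are descriptions across genes.

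**Figure D3:**
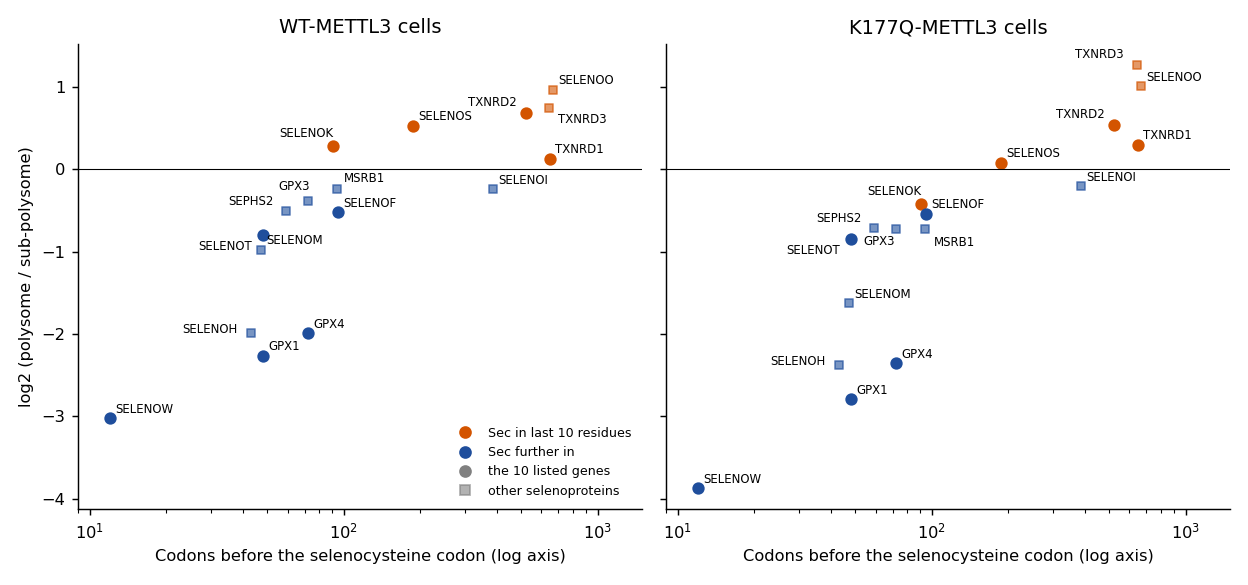
Log2 polysome over sub-polysome FPKM against the number of codons before the Sec codon (log axis) for the 17 selenoprotein mRNAs with 1 such codon, in WT-METTL3 (left) and K177Q-METTL3 cells (right), with circles for the listed genes, squares for other selenoproteins, orange for Sec among the last 10 residues and blue for Sec further in. The points climb from SELENOW at -3.02 (left panel) to the thioredoxin reductases and SELENOO near or above 0, and SELENOI stays below 0 in both panels.

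Short mRNAs were low in polysomes in the whole table too, and the part of coding length in the values above was not tested beyond the removal of its trend. Genes with proteins of up to 100 residues had a median log2 translation efficiency of -0.91 in WT-METTL3 cells, those of 100 to 200 residues -0.16 and those over 600 residues 0.32. When the trend on coding length was removed across all genes, GPX1 still had -2.27, SELENOW -2.26, GPX4 -1.98 and SELENOH -1.58 in WT-METTL3 cells. SELENOK and SELENOS, whose proteins have 94 and 189 residues, moved up to 0.96 and 0.57. With this trend removed 5 of 6 mRNAs with Sec among the last 10 residues were above 0, TXNRD1 being the exception at -0.15, and 1 of 12 with Sec further in, MSRB1 at 0.22.

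Listed peroxidases and enzymes that repair oxidized methionine, with cysteine and no Sec, gave a mixed picture. MSRA, of another family than MSRB1, had log2 translation efficiencies of 0.78 in WT-METTL3 and 0.61 in K177Q-METTL3 cells. Of the family of MSRB1, MSRB2 had 0.41 and -0.10, and MSRB3 had -0.25 and 0.07. GPX8, a peroxidase of the endoplasmic reticulum, had -0.73 and -1.11, lower than GPX3. GPX7 did not pass the minimum. Of the 15 thioredoxin and glutathione genes that work with the selenoproteins, among them thioredoxin, the peroxiredoxins and the enzymes of glutathione synthesis, 0 were at least 1.5-fold lower in the polysome fraction of WT-METTL3 cells, against 19.1% of all genes, and 7 passed 1.5-fold upward, against 28.1%, and the median was 0.50.

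The genes listed as Sec machinery make, insert or recycle Sec or regulate its insertion. They were spread over both sides, with 7 of 13 above 0 in WT-METTL3 cells. Of 14 genes listed, 13 passed the minimum, and SEPSECS, the enzyme that converts the serine on the tRNA into Sec, did not, with values between 0.53 and 0.73 FPKM. In WT-METTL3 cells 5 of the 13 were at least 1.5-fold higher in the polysome fraction, EIF4A3 (log2 2.40), SARS1 (1.37), NCL (1.18), EEFSEC (0.83) and TRNAU1AP (0.82), and 1, ALKBH8 (-0.85), was lower, against 28.1% and 19.1% of all genes. EEFSEC had 6.61 and 11.8 FPKM in the sub-polysome and polysome fractions of WT-METTL3 cells and 7.40 and 13.6 FPKM in K177Q-METTL3 cells. SECISBP2 had 3.88 and 4.61 FPKM in WT-METTL3 cells and 3.26 and 3.72 FPKM in K177Q-METTL3 cells. PSTK, the kinase that phosphorylates the serine on the tRNA, had 5.54 and 8.20 FPKM in WT-METTL3 cells and 4.40 and 8.37 FPKM in K177Q-METTL3 cells. At a log2 translation efficiency of 0.91 in K177Q-METTL3 cells it was the sixth gene past 1.5-fold there, while ALKBH8 had -0.56. Thus 6 of the 13 were higher and 0 lower in K177Q-METTL3 cells, against 30.2% and 21.3% of all genes. In FPKM as deposited SCLY, which frees selenium from Sec for reuse, was the 1 gene of the 13 past 1.5-fold between genotypes within a fraction. It had -0.65 in the sub-polysome fraction, where 2.94% of all genes were at least 1.5-fold lower.

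The study compared the genotypes to ask how the acetylation-mimetic mutant alters translation. For the selenoprotein mRNAs the log2 ratio of translation efficiency, K177Q-METTL3 over WT-METTL3, was -0.85 for SELENOW, -0.70 for SELENOK, -0.53 for GPX1, -0.45 for SELENOS, -0.36 for GPX4, -0.14 for TXNRD2, -0.05 for SELENOT, -0.02 for SELENOF, 0.07 for SELENON and 0.17 for TXNRD1. Thus 8 of 10 were below 0, with a median of -0.25, against 51.1% of all genes below 0 and a median of -0.01. SELENOW, at 1.80-fold lower, and SELENOK, at 1.63-fold lower, passed 1.5-fold, 2 of 10 against 7.03% of all genes, and 0 were at least 1.5-fold higher, against 4.08%. This direction depended on the scaling. TPM moved the ratio of all genes to a median of 0.29 and left 5 of 10 below 0, with a median of 0.05 and 0 past 1.5-fold. Relative to all genes the median of the 10 was -0.24 under both scalings, which is built in, since TPM shifts all genes of a library nearly alike. With the trend on coding length removed it was -0.18 relative to all genes.

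In FPKM as deposited the genotypes differed more in the sub-polysome than in the polysome fraction. For sub-polysomes the log2 ratio of K177Q-METTL3 to WT-METTL3 FPKM was above 0 for 8 of 10, from 0.05 for SELENOT to 0.57 for SELENOW, and was -0.02 for SELENOF and -0.03 for TXNRD1. The median was 0.22, against -0.0039 for all genes, and 0 of 10 passed 1.5-fold in either direction, against 4.01% of all genes higher and 2.94% lower. TPM brought this median to 0.01, because the K177Q-METTL3 sub-polysome library has the largest total, and it brought that of all genes to -0.21. In the polysome fraction the ratios ran from -0.32 for SELENOK to 0.27 for SELENON, with 7 of 10 below 0, a median of -0.09 and 0 past 1.5-fold, against 2.13% of all genes higher and 3.13% lower. Of the 10, 6 (SELENOW, SELENOK, SELENOS, GPX1, GPX4 and TXNRD2) had a ratio above 0 in the sub-polysome and below 0 in the polysome fraction. As deposited, SELENON was the 1 with values at least 0.2 higher on the log2 scale in both fractions. With TPM it had -0.0001 in the sub-polysome and 0.37 in the polysome fraction. With TPM the signs of TXNRD2 were reversed, at -0.12 and 0.04. Over all genes as deposited, 50.6% were below 0 in the sub-polysome and 53.7% in the polysome fraction. The share of all genes with opposite signs in the fractions was not counted.

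**Figure D4:**
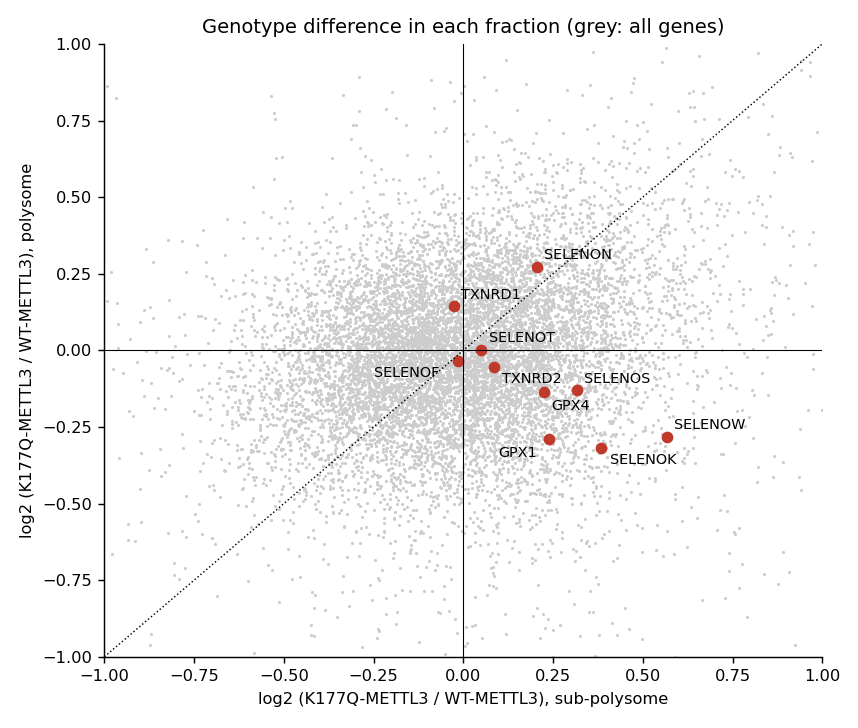
Log2 ratio of K177Q-METTL3 to WT-METTL3 FPKM in the polysome fraction against that in the sub-polysome fraction, with all genes in grey (273 genes beyond 1 in either fraction fall outside the axes), the selenoprotein mRNAs in red and equal ratios as a dotted line. GPX1, GPX4, SELENOK, SELENOS and SELENOW lie in the lower right, TXNRD2 lies there close to the origin, and SELENON lies in the upper right.

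Short and abundant mRNAs had lower ratios in the whole table as well. Genes with proteins of up to 100 residues had a median log2 ratio of translation efficiency of -0.33, and the 1091 most abundant genes, which include GPX1, GPX4 and SELENOW, had -0.27. With the trend on coding length removed, SELENOW had -0.52, SELENOK -0.39, GPX1 -0.36, SELENOS -0.26, TXNRD2 -0.20 and GPX4 -0.19, SELENON -0.02, TXNRD1 0.06, SELENOT 0.13 and SELENOF 0.21, and 0 of 10 passed 1.5-fold. The part of abundance in these ratios was not tested. Among the other selenoproteins, SELENOM was 1.57-fold lower, at -0.65, SELENOH had -0.39, MSRB1 -0.49 and GPX3 -0.34, and TXNRD3 had 0.53. Of the 13 Sec machinery genes and of the 15 partner genes, 0 passed 1.5-fold in this ratio in either direction as deposited. Of all genes, 4.08% were higher and 7.03% lower. These genes were not counted with TPM, which moved the median ratio of all genes to 0.29.

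**Figure D5:**
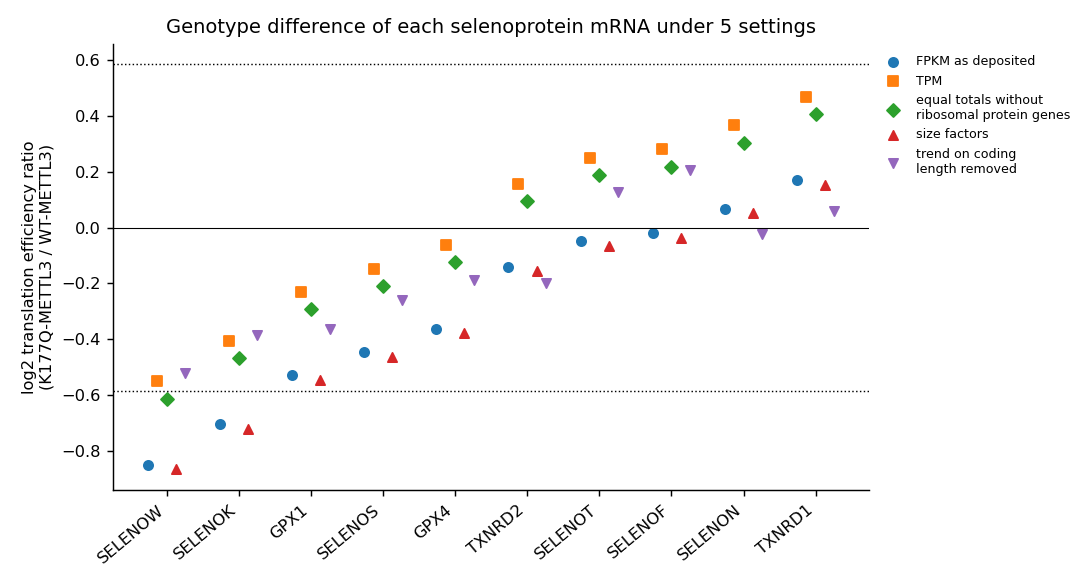
Log2 ratio of translation efficiency, K177Q-METTL3 over WT-METTL3, of each selenoprotein mRNA under 5 settings, with 1.5-fold as dotted lines. SELENOW and SELENOK lie lowest under each setting, SELENOW at -0.85 as deposited and -0.55 with TPM, and SELENOT, SELENOF and TXNRD2 change side of 0 with the scaling.

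Among genes averaging 10 FPKM or more, the 3 whose pattern over the 4 libraries was nearest to the median pattern of the 10, outside the lists used here, were PPARD, PPP1CB and SHARPIN, at Euclidean distances of 0.018, 0.045 and 0.056 in centred log2 FPKM. PPARD had 37.6 and 24.8 FPKM in the sub-polysome and polysome fractions of WT-METTL3 cells and 39.1 and 25.6 FPKM in K177Q-METTL3 cells. With 4 points a near pattern is easily found among 5336 candidates.

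Some values could hold reads of other loci. GENCODE names 3 pseudogenes of SELENOK, 2 each of GPX1 and SELENOT and 1 of SELENOW, and the table lists SELENOKP3 at 0 in the 4 libraries. GPX1 and SELENON overlap unnamed gene models. The libraries were directional, but the counting is not stated to use strand, and a share of such reads was not tested.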

How the data were processed

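Poly(A)-selected, directional libraries of sub-polysome and polysome RNA were sequenced by the authors, and the deposited values are FPKM per gene, 1 column per library, scaled by the authors to transcript length and mapped fragments. The submitters' processing notes name STAR 2.7, StringTie 2.1.5 and hg38, without role or order, and the annotation is not given in the sources used here. The table has 4 other columns, with the same names but the number 1 in place of 2. They correspond to none of the samples described for this work and were not analysed here.

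Log2 ratios were computed from FPKM with 0.1 added, for genes that averaged 1 FPKM or more across the 4 libraries. With 1 library per condition no test was made, and at least 1.5-fold counted as higher or lower. The members, lists and settings were chosen with earlier results of these data known. Named were the 10 members, the other selenoproteins past the minimum, the Sec machinery genes past 1.5-fold with SECISBP2, EEFSEC, SEPSECS and PSTK, the listed enzymes with cysteine and no Sec, and METTL3.

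Coding lengths, Sec codons and sequences came from canonical transcripts of GENCODE 44 on hg38, which gave a length for 94.5% of the genes kept. The trend on coding length was a lowess curve with a span of 0.3. Depth was approximated by taking the lowest cluster of FPKM times transcript length, in genes with 1 transcript, to stand for 1 fragment, and the limits of the cluster were set once the values had been seen. The calculation was tested on simulated data. Alternatives were other pseudocounts, minimum means, scalings, centring, removal of the length trend and a 2-fold threshold. Calculations used Python 3.11.15 with numpy 2.4.6 and pandas 2.3.3, the lowess curve statsmodels 0.14.6, the correlations scipy 1.17.1, and the plots matplotlib 3.10.9.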

Additional observations from a re-analysis of the deposited data

Results flagged for a closer look

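The 35 genes checked were selenoproteins, Sec machinery genes and the listed enzymes with cysteine and no Sec. Of these, 4 had a polysome to sub-polysome ratio on opposite sides of 1 in the genotypes, as did 12.3% of all genes. The difference was not tested, with 1 library per condition. SELENOK had a log2 ratio of 0.28 in WT-METTL3 and -0.42 in K177Q-METTL3 cells. SCLY, which recycles selenium from selenocysteine, had -0.070 and 0.49. MSRB2 had 0.41 and -0.10, and MSRB3 had -0.25 and 0.066. With TPM both values of SELENOK were above 0, at 0.42 and 0.01. SCLY, MSRB2 and MSRB3 were not examined with TPM, which raised the median of all genes in both genotypes. The count of 4 thus holds for FPKM as deposited.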

How the results depend on the processing

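With 1 library per condition no paired test was possible, and no replicate was left out. The 4 libraries analysed carry the same replicate number. Of 450 values of the 10 mRNAs under the alternatives other than the 2-fold threshold, 132 moved by at least 0.1 on the log2 scale, 28 took the other sign, 10 lost the 1.5-fold call and 10 gained it. The cause was not tested beyond the construction of each alternative. The share of all genes called higher or lower was not counted under the alternatives, so the counts of mRNAs below have no background. TPM raised the median log2 translation efficiency of all genes too. It went from 0.14 to 0.28 in WT-METTL3 cells and from 0.16 to 0.59 in K177Q-METTL3 cells. A shift common to all genes can change such counts.

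For log2 translation efficiency in WT-METTL3 cells, TPM gave a median of -0.53 and 2 mRNAs higher, centring on the median of all genes gave -0.81 and 0 higher, and a 2-fold threshold left 0 higher and 3 lower. In K177Q-METTL3 cells, TPM gave a median of -0.21 with 2 higher and 3 lower, equal totals without ribosomal protein genes gave -0.43 with 1 higher, size factors gave -0.76, centring gave -0.81, removal of the length trend gave -0.42, and a 2-fold threshold left 3 lower. For the ratio of translation efficiency, TPM gave a median of 0.047 with 0 lower, equal totals without ribosomal protein genes gave -0.014 with 1 lower, and removal of the length trend and a 2-fold threshold each left 0 lower. For the sub-polysome fraction between genotypes, TPM gave a median of 0.010 and equal totals without ribosomal protein genes 0.016.

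Counting error covers depth only, and variation between replicates was not measured here.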
